A study of Mus musculus with 15 samples.

Results

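The response of RAW264.7 cells, a mouse macrophage line, to lipopolysaccharide (LPS) was described across all genes on an expression array. The comparison used 6 of the study's 15 arrays, chosen by their titles: 3 of cells activated by LPS in the presence of vehicle, and 3 of cells given no LPS. Both groups were first incubated for 30 min with the same vehicle, 0.1% ethanol in medium. The activated cells then received 1.0 µg/mL LPS and the control cells the same buffer, PBS in medium, and RNA was taken at 24 h, the only time measured. Arrays with the same replicate number came from the same of 3 experiments, so each experiment gave 1 array a group. The other 9 arrays were of cells given LPS with hydroxylated docosahexaenoyl ethanolamides (HDHEAs), and entered only through the shared estimate of spread and where their range is named. RAW264.7 is a virus-transformed line that keeps dividing in culture, and it stands for macrophages only in that form.

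LPS is a glycolipid on the surface of Gram-negative bacteria. Macrophages bind it through CD14 and the receptor TLR4, whose adaptors switch on the transcription factors NF-kB and AP-1 through MyD88, and interferon regulatory factors through TRIF. The interferon made in turn acts back on the same cells through STAT proteins, and induced inhibitors damp the signal over the following hours. Activated macrophages are also known to change their metabolism and surface receptors and to slow their division.

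Values were log2 expression per probe set, and array medians lay between 3.62 and 3.69, so that quantile normalization had made the arrays alike as a whole. Of 22180 genes with a probe set of their own, 15468 were tested and 6712 were set aside as dim. A level is called dim where it lay below its array's 40th percentile, which ran from 3.16 to 3.22. The first principal component, with 63.8% of the variance between arrays, separated the arrays without LPS from those with it.

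Several markers of the macrophage list were among the brightest genes, and others lay lower. Cd68, Itgam, Fcer1g and Ctss lay above percentile 99 in both groups, and none of these 4 passed the test. Without LPS, Adgre1 lay at percentile 74.1, Mertk at 77.4 and Lyz1 at 65.0. Of 20 identity markers tested, 4 rose (Adgre1, Fcgr1, Mertk and Cd14) and 5 fell (Csf1r, Cx3cr1, Tyrobp, Lgals3 and Laptm5). Over all genes, 13.5% rose and 16.3% fell. The fall of Csf1r was small (-0.236 on the log2 scale, adjusted p 0.037, limma). Csf1r lost its call with only the 6 arrays (adjusted p 0.111) or with no filter on dim genes (0.0661). The call was also lost with arrays centred on their medians (0.144). Without the experiment 1 or 2 LPS array or the experiment 3 array without LPS, Csf1r was not called either (up to 0.158). Cd163, a haemoglobin scavenger receptor of some tissue macrophages, was dim in both groups (2.87 and 2.77), as was Mrc1 with LPS (2.92). Markers of other cells were present at varied levels. Their lists had 8 to 16 members tested, and shares called are to be read against 13.5% higher and 16.3% lower over all genes. Of 16 osteoclast markers, genes of the bone-resorbing cell that this line can form, 13 were tested, 3 rose and 3 fell (23.1% each). The proton pump subunit gene Tcirg1 of that list lay at percentile 97.9 without LPS, Car2 at 89.0 and the receptor gene Tnfrsf11a at 85.8, while Acp5, Calcr and Atp6v0d2 were set aside as dim. The rises were those of Mmp9 (3.23 on the log2 scale), Src (1.27) and Clcn7 (0.915). The falls were those of Dcstamp (-0.984), Nfatc1 (-0.830) and Car2 (-0.694). The summed linear level of the osteoclast list ran from 2859 to 3152 without LPS and from 3996 to 4249 with it. Mmp9, also counted among the matrix genes, went from a mean of 6.68 to 9.91, so the sum does not stand for the list as a whole. Of 18 neutrophil and mast cell markers 10 were set aside as dim, 4 rose and none fell by limma (none at an unadjusted p under 0.05 or in any other setting), with Csf3r at percentiles 81.7 and 85.5, and the summed level ran from 255 to 278 and from 337 to 412. All 12 dendritic cell markers on the array were tested, with the lectin gene Cd209a at percentiles 91.5 and 91.9. In that list 1 rose and 1 fell (8.33% each), and 2 rose without the experiment 1 LPS array. None fell without the experiment 1 or 3 array without LPS or the experiment 2 LPS array. The summed level of the list ran from 454 to 894 and from 518 to 782. Of 19 stromal, epithelial and endothelial markers 16 were tested, 3 rose (18.75%) and 1 fell (6.25%). Their summed level ran from 272 to 301 and from 320 to 346. Without the experiment 1 LPS array or the experiment 2 array without LPS none of these rose, and without the experiment 2 LPS array 1 did; none fell without the experiment 2 array without LPS or the experiment 3 LPS array. Of 16 lymphocyte markers on the array 8 were set aside as dim, among them Cd3e, Cd79a, Cd79b, Ms4a1 and Pax5, and 2 fell, Ighm and Cd4 (1 without either experiment 2 or 3 array). The summed linear level of the lymphocyte list ran from 439 to 780 without LPS and from 167 to 212 with it, against 32420 to 36700 over both groups for the macrophage list. The immunoglobulin gene Ighm, described last, made most of the lymphocyte sum without LPS. The part of such cells in the changes below was not tested.

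LPS changed 4616 of the 15468 genes tested, 29.8% of them, at an adjusted p under 0.05 in limma 3.58.1. Of these, 2089 (13.5%) were higher and 2527 (16.3%) lower with LPS, a balance that turned with arrays centred on their medians (2534 higher, 2082 lower). Changes of at least 2-fold were as common upward, in 498 genes (3.22%), as downward, in 519 (3.36%). Large changes were mostly rises: 169 genes rose and 50 fell at least 4-fold, 79 rose and 4 fell at least 8-fold, and 34 rose and none fell at least 16-fold. The median SE of a difference was 0.126 on the log2 scale. The sign was the same in all 3 experiments for 4585 of the 4616 genes, and for every called gene past 2-fold. As the genes were called on these same arrays, such agreement was largely set by the call. Over all genes tested, the differences of any pair of experiments correlated at r 0.842 to 0.845. The 3 arrays of each group did not overlap in 2951 genes that read higher (19.1%) and 3427 that read lower (22.2%) with LPS. In bulk RNA, fewer cells of a kind and less RNA per cell cannot be told apart, and this holds for each fall below.

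**Figure D1:**
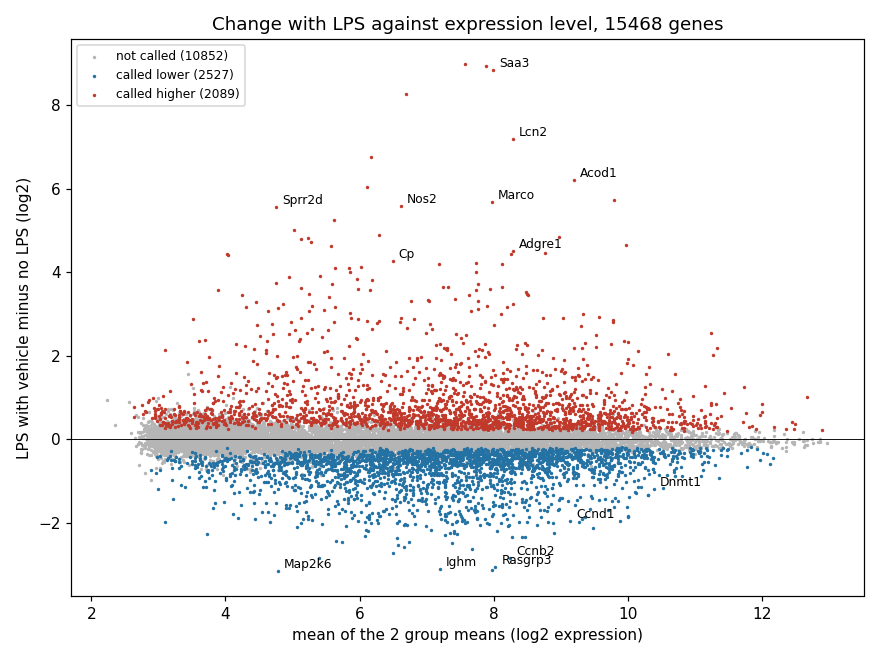
Difference between cells with LPS and vehicle and cells without LPS (y axis, log2) against the mean of both group means (x axis, log2 expression) for each of the 15468 genes tested, coloured by the limma call. Rises such as that of Saa3 (8.84) reach further from 0 than falls such as that of Map2k6 (-3.14), while the called genes number 2089 higher and 2527 lower.

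Calls were spread unevenly over expression levels. Among genes whose mean over the 15 arrays lay between the 40th and 50th percentiles, 2.91% rose and 2.27% fell. Between the 70th and 80th percentiles 13.9% rose and 25.2% fell, and above the 95th 26.2% rose and 19.0% fell. Of protein-coding genes 14.3% rose and 17.7% fell, and of long non-coding RNA genes 7.61% and 5.29%. Of 72 small nucleolar RNA genes none was called by limma, and 1 in each direction had an unadjusted p under 0.05; up to 2 rose and 3 fell in other settings. Of 214 microRNA genes, 5 rose and 5 fell, and the counts ran from 2 to 11 and from 1 to 9 in other settings. The only microRNA gene past 2-fold was Mir483, which read 4.50, 4.94 and 5.25 without LPS and 6.13, 6.43 and 6.80 with it (adjusted p 3.31e-05, limma). Of 9889 tested probe sets that the gene table does not name, 291 (2.94%) were called, against 29.8% of the genes tested.

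Genes that sense bacteria changed in both directions. Of 28 genes for the LPS receptor, Toll-like receptors and their adaptors, 13 rose and 7 fell (3 fell without the experiment 3 array of cells without LPS). Irak3, an inactive kinase that brakes the receptor complex, read 8.33, 8.27 and 8.25 without LPS and 10.80, 10.73 and 10.79 with it. All LPS values lay above all control values, and the 5.63-fold rise was 2.49 with SE 0.0727 on the log2 scale (adjusted p 2.33e-11, limma). Tlr1, which pairs with TLR2 to bind bacterial lipopeptides, rose 4.35-fold. The flagellin receptor gene Tlr5 moved the other way: it read 6.76, 6.88 and 7.25 without LPS and 4.28, 4.43 and 4.79 with it, 5.52-fold lower with no overlap. Tlr13, a sensor of bacterial ribosomal RNA, was 2.03-fold lower. Cytosolic sensors rose in 14 of 22 cases and fell in 3. The nucleic acid sensor Zbp1 rose 12.5-fold, the inflammasome gene Nlrp3 4.06-fold and Casp4, whose product binds LPS inside the cell, 2.84-fold, while the DNA sensor Cgas was 1.43-fold lower.

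Among the 26 MAP kinase cascade genes, 3 rose and 6 fell, shares near those over all genes (5 rose with experiment as a block or quantile normalization repeated, and 7 with arrays centred on their medians). Map2k6, which activates p38 kinases, had the largest fall among all named genes. It read 5.83, 6.48 and 6.74 without LPS and 2.98, 3.33 and 3.32 with it, so that with LPS it sat at percentile 40.6 of the arrays on average. The fall was 3.14 on the log2 scale (SE 0.188, adjusted p 2.56e-08, limma). The 9 arrays with LPS and an HDHEA read 3.16 to 3.56. Rasgrp3, an exchange factor that activates Ras, fell by a like amount from a high level: it read 9.46, 9.47 and 9.73 without LPS and 6.55, 6.33 and 6.61 with it. Of 37 genes for cyclic nucleotide and G protein signalling 4 rose and 13 fell. They include Rgs2, which speeds the shut-off of G proteins, 3.57-fold lower, and Prkar2a, a regulatory subunit of protein kinase A, 2.24-fold lower. With arrays centred on their medians, 10 of this list rose.

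Inhibitors of the response were among the genes raised. Of 32 cytokine signal inhibitors and ubiquitin editing brakes, 16 rose, 15 of them at least 2-fold, and 4 fell. Socs3, which blocks receptors that signal through STAT3, read 3.94, 3.59 and 4.01 without LPS and 8.78, 8.73 and 8.69 with it, a 29.5-fold rise. The RNase gene Zc3h12a, which cuts inflammatory mRNAs, rose 8.94-fold, Nfkbiz, an atypical IkB protein, 12.5-fold and the ubiquitin ligase gene Peli1 4.52-fold. A pair of mRNA decay genes fell: Zfp36l2 was 3.09-fold lower, with 10.62, 10.54 and 10.67 against 8.88, 9.21 and 8.85, and its paralog Zfp36l1 1.64-fold lower. Their relative Zfp36, named after its change was seen, rose by 1.40 on the log2 scale. Of 24 NF-kB, IRF and STAT factors, 15 rose, led by Irf7, the interferon regulator that amplifies type I interferon, at 6.98-fold. The 1 fall was that of Irf4, 1.36-fold, and no member fell without the experiment 1 or 3 array without LPS, without the experiment 2 LPS array or with arrays centred on their medians, while 3 fell with experiment as a block. Of 60 AP-1, EGR, CREB, ATF and related factors, 23 rose (38.3%) and 11 fell (18.3%, near the 16.3% over all genes). Junb rose 2.72-fold and the Myc antagonist Mxd1 3.45-fold, while the hypoxia factor gene Epas1 was 2.81-fold lower.

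**Figure D2:**
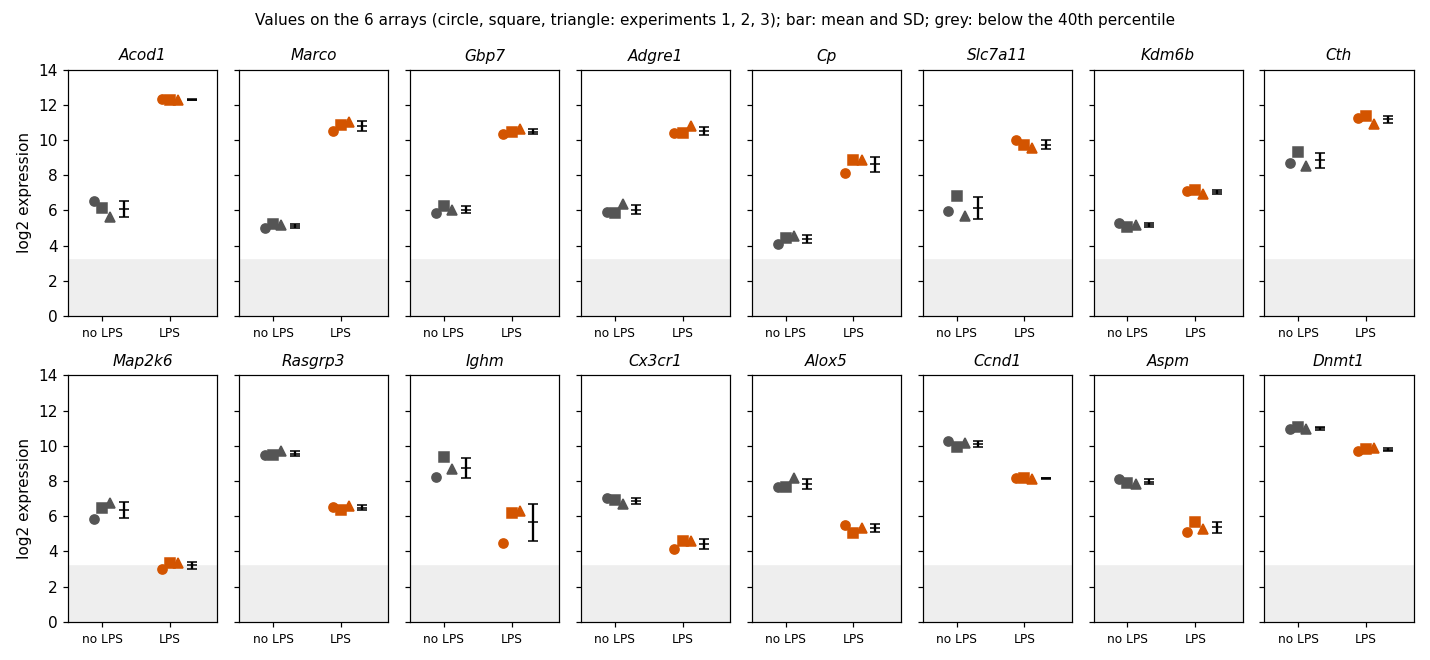
Log2 expression (y axis) of 16 genes on each of the 6 arrays, with symbols for the 3 experiments, bars for the group mean and SD (n = 3), and grey for levels below the mean 40th percentile. In each panel the groups do not overlap; Acod1 rises from 6.55 or less to 12.27 or more, and Map2k6 falls to between 2.98 and 3.33.

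Genes that interferon induces had the highest share of rises among the 46 lists plotted. Of 68 interferon-stimulated antiviral effectors, 61 (89.7%) rose, 39 of them at least 2-fold. 2 fell, and 1 with arrays centred on their medians or without the experiment 1 array without LPS, the experiment 2 LPS array or either experiment 3 array. The list had a median log2 change of 1.22 against 0.00 over all genes tested. The guanylate-binding proteins, GTPases that attack the membranes of vacuoles and bacteria, rose in 9 of 9 cases tested, with a median change of 2.72. Gbp7 read 5.85, 6.24 and 6.04 without LPS and 10.33, 10.47 and 10.60 with it, 21.4-fold higher (adjusted p 1.25e-10, limma). Gbp8 rose least, by 1.16 on the log2 scale, and lost its call without either experiment 1 array (adjusted p up to 0.0805), the experiment 2 array without LPS (0.0666) or the experiment 3 LPS array (0.0533). Members of this family on chromosomes 3 and 5 are near-identical in parts, so signal may be shared between their probe sets. Oasl1, an inhibitor of Irf7 translation, rose 13.0-fold, the ubiquitin-like modifier gene Isg15 11.2-fold and the virion tether gene Bst2 4.96-fold. The RNA-editing deaminase gene Apobec1 fell from 11.46, 11.50 and 11.52 to 10.71, 10.84 and 10.70. The antiviral list and the groups of growth genes lie at opposite ends of the plot of group members.

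Known sites were matched more often before these genes than before others, as a description. For 9816 of the tested genes the RefSeq-derived table of GRCm38.p6 held a single window of 300 bases, which runs from upstream of the gene's start to just past it. The interferon-stimulated response element (ISRE) was searched on both strands as GAAA, any 2 bases and GAAA. It was in 20 of the 40 windows of raised antiviral effectors and in 3.09% of all windows. The NF-kB site, searched by its usual consensus, was in 12.5% of those 40, in 11.3% of the 320 windows of genes raised at least 2-fold, and in 5.05% of all. The median GC content of the 40 windows was 50.3%, against 59.7% for all, and its part in the shares was not tested. Of all matches, 2.50% of the NF-kB and 4.42% of the ISRE ones overlapped another motif searched. A match is a run of letters, not a measured site. 3 windows of strongly raised genes are given 5′ to 3′ with the matched letters in capitals: an NF-kB match in Oasl1 (chr5:114922990-114923289, plus strand), and ISRE matches in Gbp7 (chr3:142530086-142530385, plus strand) and in the acute-phase gene Saa3 (chr7:46715627-46715926, minus strand). Gbp7 was chosen after its values were seen.
Oasl1: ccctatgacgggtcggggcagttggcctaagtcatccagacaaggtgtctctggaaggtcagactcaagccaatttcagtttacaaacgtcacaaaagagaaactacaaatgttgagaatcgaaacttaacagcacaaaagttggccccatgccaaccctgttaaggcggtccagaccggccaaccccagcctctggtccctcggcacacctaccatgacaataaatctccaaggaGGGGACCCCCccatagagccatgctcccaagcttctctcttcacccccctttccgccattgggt
Gbp7: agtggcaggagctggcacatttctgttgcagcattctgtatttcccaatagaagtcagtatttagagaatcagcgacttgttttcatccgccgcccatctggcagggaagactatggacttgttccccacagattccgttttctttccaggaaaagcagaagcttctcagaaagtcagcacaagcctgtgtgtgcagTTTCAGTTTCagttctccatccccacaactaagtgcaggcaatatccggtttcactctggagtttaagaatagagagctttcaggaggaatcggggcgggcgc
Saa3: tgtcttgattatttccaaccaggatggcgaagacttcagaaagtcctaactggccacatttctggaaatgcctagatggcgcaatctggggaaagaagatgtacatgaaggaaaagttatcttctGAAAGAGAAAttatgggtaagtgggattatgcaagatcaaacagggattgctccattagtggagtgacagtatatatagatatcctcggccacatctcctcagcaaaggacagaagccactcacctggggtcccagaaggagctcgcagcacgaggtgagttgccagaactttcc

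Antigen presentation genes rose. Of 20 genes for MHC class I loading and the immunoproteasome, 15 rose and none fell by limma (none at an unadjusted p under 0.05 either). Of 26 for class II, costimulation and checkpoints, 15 rose and none fell, though 2 were lower at an unadjusted p under 0.05 and 1 fell in 4 other settings, experiment as a block among them. The peptide transporter gene Tap1 was 2.91-fold higher, and H2-T23, a non-classical class I gene, 3.84-fold higher. Psmb9, Tap1, Psmb8, Tap2 and H2-Ob, which lie next to each other on chromosome 17, were all raised. The checkpoint ligand gene Cd274 read 5.95, 6.88 and 6.06 without LPS and 9.85, 10.16 and 9.79 with it, 12.4-fold higher. The costimulatory genes Cd40 and Cd86 rose 9.92-fold and 5.77-fold. Of 46 proteasome subunit genes, 17 rose and 1 fell, none by as much as 2-fold (no fall with probe sets averaged).

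Secreted and surface products held the largest rises. Among 33 acute-phase, complement and coagulation genes, 11 rose (33.3%) and 6 fell (18.2%, near the 16.3% over all genes). The serum amyloid gene Saa3 read 3.57, 3.42 and 3.74 without LPS and 12.39, 12.26 and 12.59 with it, 457-fold higher. Serpinb2, an inhibitor of plasminogen activators, was dim without LPS at 3.09, 2.62 and 2.67 and read 10.10, 9.27 and 9.30 with it, at least 83.8-fold higher; such bounds were taken from the mean 40th percentile of the dim group. Gas6, a ligand of TAM receptors, was 2.39-fold lower, and the urokinase gene Plau 2.25-fold lower. Of 40 growth, repair and vessel factors, 14 rose and 4 fell. The activin subunit gene Inhba rose at least 22.2-fold, the vasoconstrictor gene Edn1 12.3-fold and the macrophage growth factor gene Csf1 9.14-fold, while Tgfb3 was 3.19-fold lower. The folds of Edn1 and Saa3 are not bounds, though their means without LPS, 3.32 and 3.58, lay little above the dim limit.

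Of 42 phagocytic receptors 13 rose (31.0%, against 13.5% over all genes). The 8 falls (19.0%) were near the share over all genes, 16.3%. The scavenger receptor gene Marco read 5.02, 5.22 and 5.17 without LPS and 10.49, 10.88 and 11.03 with it, 50.8-fold higher. The sialic acid receptor gene Siglec1 rose 9.83-fold. The beta-glucan receptor gene Clec7a fell 4.15-fold, from 7.70, 7.61 and 7.87 to 5.98, 5.54 and 5.51, and the lipid receptor gene Trem2 2.25-fold. Of 52 chemoattractant and lipid mediator receptors 16 rose (30.8%) and 10 fell (19.2%). Adgre1, which encodes the F4/80 antigen, was counted in this list and among the identity markers. It read 5.92, 5.87 and 6.34 without LPS and 10.42, 10.40 and 10.80 with it, moving from percentile 74.1 to 97.9. The fractalkine receptor gene Cx3cr1 went the other way, from 7.01, 6.90 and 6.69 to 4.12, 4.60 and 4.58, 5.40-fold lower. Fcgr1, the high-affinity IgG receptor, rose 2.96-fold and the inhibitory Fcgr2b 2.42-fold, while Cd300lg was 6.18-fold lower and its relative Cd300lb 3.56-fold lower.

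Of 36 matrix and protease genes, 10 rose (27.8%) and 7 fell (19.4%), against 13.5% and 16.3% over all genes. The gelatinase gene Mmp9 read 6.51, 6.80 and 6.73 without LPS and 9.77, 9.94 and 10.01 with it, and Tgfbi, a TGF-beta-induced matrix protein, read 7.83, 7.65 and 8.10 without LPS and 5.68, 4.63 and 5.06 with it. Neither gene's groups overlapped.

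**Figure D3:**
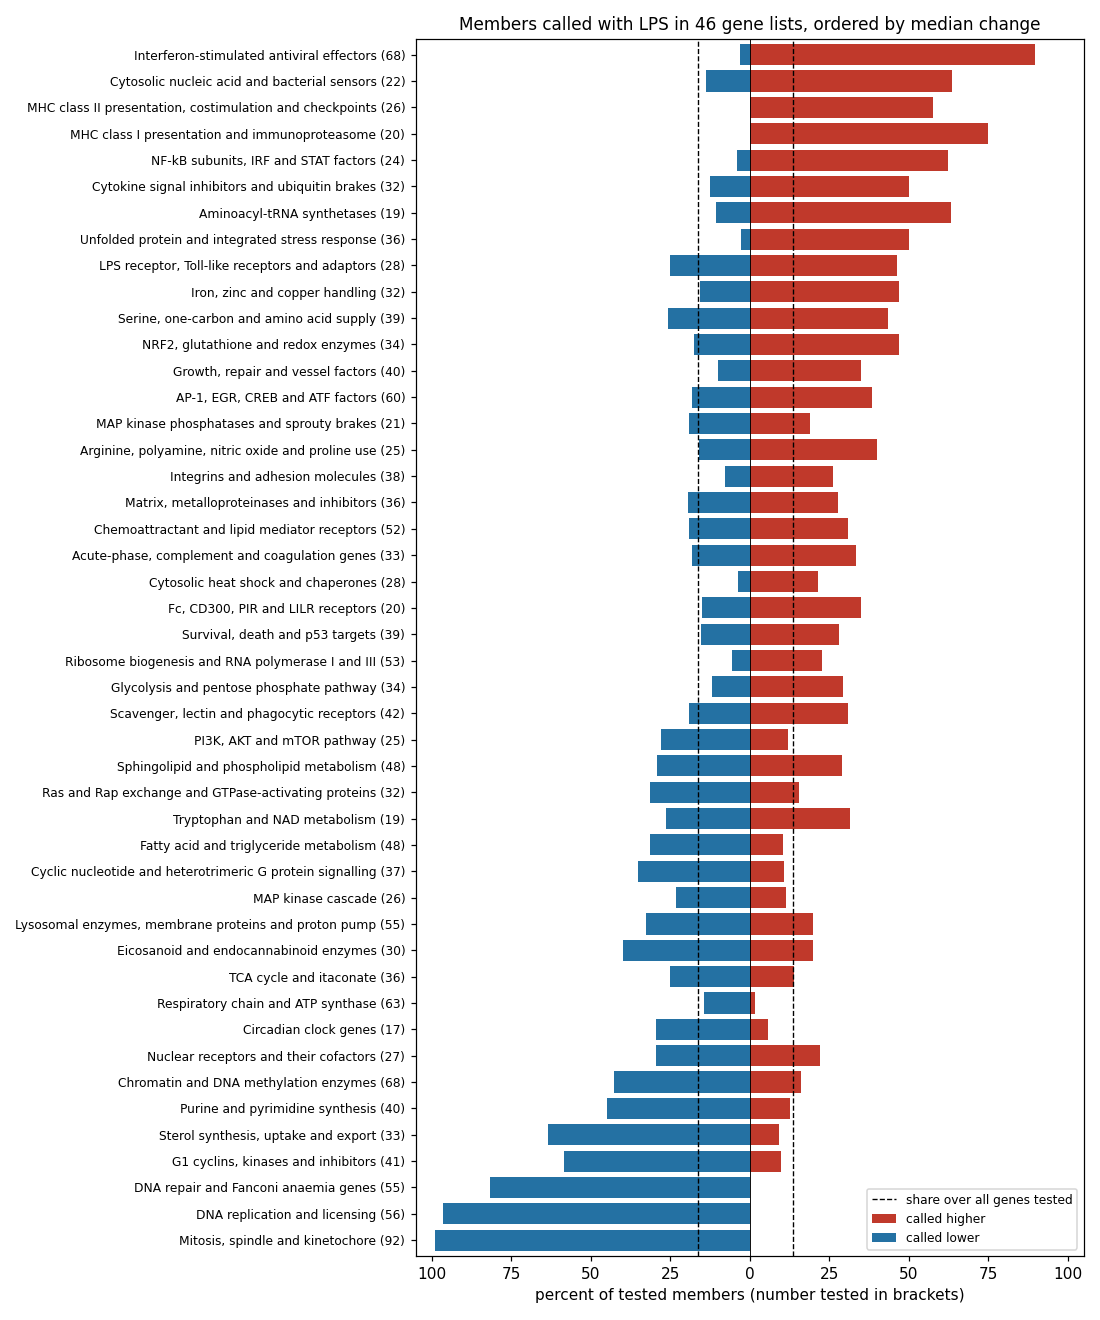
Percent of tested members called higher (red, to the right) and lower (blue, to the left) in 46 gene lists ordered by median change, with dashed lines at the shares over all genes tested, 13.5% higher and 16.3% lower. Antiviral effectors stand at the top with 89.7% higher, and the mitosis, DNA replication and DNA repair lists at the bottom with no member higher.

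Metabolic genes changed in both directions. Acod1, which makes itaconate from a citric acid cycle intermediate, read 6.55, 6.11 and 5.62 without LPS and 12.31, 12.27 and 12.30 with it, 73.4-fold higher, and the 9 arrays with LPS and an HDHEA read 12.24 to 12.38. Of the 36 genes of the citric acid cycle and itaconate list, Acod1 included, 5 rose (13.9%, against 13.5% over all genes) and 9 fell, with Idh2, the mitochondrial isocitrate dehydrogenase, 1.60-fold lower. Without the experiment 1 LPS array 3 rose, and with a trended, robust prior 14 fell. Respiratory chain and ATP synthase genes were called in 10 of 63 cases, 1 higher and 9 lower, a smaller share than over all genes, and 5 fell without the experiment 1 LPS array or the experiment 2 array without LPS, and 4 with arrays centred on their medians. Of 34 glycolysis and pentose phosphate genes 10 rose and 4 fell, with the hexokinase gene Hk2 2.77-fold higher.

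Importers of arginine and cystine rose strongly. Slc7a2, which imports arginine, read 6.00, 5.80 and 5.93 without LPS and 9.37, 9.22 and 9.50 with it, 3.45 higher on the log2 scale, beside the nitric oxide synthase gene Nos2 at 5.59. Slc7a11, the cystine importer that feeds glutathione synthesis, rose 12.1-fold, and Cth, which makes cysteine, 5.03-fold. Of 34 NRF2, glutathione and redox genes, 16 rose (47.06%) and 6 fell (17.65%, near the 16.3% over all genes). The mitochondrial superoxide dismutase gene Sod2 rose 4.51-fold, and the selenium carrier gene Selenop was 2.26-fold lower. Of 32 metal handling genes, 15 rose and 5 fell (3 without the experiment 1 LPS array). The siderophore binder Lcn2 read 4.48, 4.62 and 4.98 without LPS and 11.80, 11.86 and 11.94 with it. The copper ferroxidase gene Cp rose 19.1-fold, from 4.12, 4.44 and 4.53 to 8.14, 8.88 and 8.85, and the iron exporter gene Slc40a1 was 1.88-fold lower.

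Falls outnumbered rises in 3 lists of lipid genes, and in another, sphingolipid and phospholipid metabolism, 14 of 48 rose and 14 fell. Of 33 sterol synthesis, uptake and export genes, 21 (63.6%) fell and 3 rose, none by as much as 2-fold. Their median log2 change was -0.40. Dhcr7, which completes cholesterol synthesis, was 1.63-fold lower and the regulator Srebf2 1.45-fold lower, while the cholesterol exporter gene Abca1 was 1.88-fold higher. In fatty acid and triglyceride metabolism 5 of 48 rose and 15 fell. Without the experiment 1 or 2 LPS array, or the experiment 3 array without LPS, 3 rose. Dgat2, which completes triglyceride synthesis, read 5.27, 5.46 and 5.39 without LPS and 8.15, 7.96 and 8.62 with it, while lipoprotein lipase, Lpl, was 2.22-fold lower. Among 30 eicosanoid and endocannabinoid enzymes, 6 rose and 12 fell. The prostaglandin synthase gene Ptgs2 rose by 4.64 on the log2 scale. The leukotriene enzyme gene Alox5 fell 5.74-fold, from 7.63, 7.68 and 8.19 to 5.53, 5.07 and 5.34. Daglb, which makes 2-arachidonoylglycerol, was 2.67-fold lower.

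Genes of protein synthesis differed by group. Of 64 cytosolic ribosomal protein genes, 2 fell and none rose by limma (10 lower and 1 higher at an unadjusted p under 0.05), against 29.8% called over all genes. Over the other settings 1 to 7 fell and up to 1 rose, the rise being called without the experiment 1 or 2 LPS array among others. Aminoacyl-tRNA synthetases rose in 12 of 19 cases and fell in 2, all by less than 2-fold, led by Rars at 1.63-fold. Among 36 members of the unfolded protein and integrated stress responses, 18 rose and 1 fell (2 with experiment as a block). The ER chaperone cofactor gene Dnajb9 was 2.31-fold higher, and the fall was that of the stress kinase gene Eif2ak3, 1.39-fold. Among 55 lysosomal enzyme and proton pump genes, 11 rose and 18 fell (7 rose when only the 6 arrays were fitted). Arsb, an arylsulfatase, read 10.73, 10.65 and 10.77 without LPS and 9.34, 9.26 and 9.38 with it.

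Cell division genes fell in nearly every case. Of 92 genes of mitosis, spindle and kinetochore, 91 (98.9%) fell and none rose by limma, 84 of them at least 2-fold, with a median log2 change of -1.81. Of 56 DNA replication genes 54 fell and none rose, with a median of -1.14, and of 55 DNA repair genes 45 fell and none rose, with a median of -0.84. None was higher at an unadjusted p under 0.05 in the mitosis and replication lists, and 1 in the repair list, which was called with experiment as a block and in 4 other settings. Aspm, a spindle pole gene, read 8.11, 7.89 and 7.86 without LPS and 5.12, 5.69 and 5.30 with it, 6.00-fold lower (adjusted p 1.58e-08, limma). The mitotic cyclin gene Ccnb2 read 9.52, 9.80 and 9.66 without LPS and 6.52, 7.18 and 6.76 with it. No LPS value of either gene reached the control values. The cytokinesis genes Kif14 and Prc1 fell 4.07-fold and 4.05-fold. Clspn, which relays replication stress, was 3.94-fold lower, the polymerase gene Pola1 2.37-fold lower, Brca1 3.41-fold lower and Fancd2 3.47-fold lower.

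Genes of entry into the cycle changed as well. Of 41 G1 cyclins, kinases, inhibitors and their factors, 24 fell and 4 rose. Ccnd1, the cyclin that links growth signals to the cycle, read 10.25, 9.92 and 10.16 without LPS and 8.17, 8.19 and 8.12 with it. The CDK inhibitor gene Cdkn2c fell too, from 6.64, 6.79 and 7.04 to 4.04, 4.19 and 3.71, 7.16-fold. The antiproliferative gene Btg1 rose 2.60-fold and Gadd45b, a stress gene, 1.89-fold. Among 27 histone genes, most of them from the histone clusters but with variants such as H2ax and H2az2, 21 fell with none higher by limma (none at an unadjusted p under 0.05), and a run of 8 neighbouring called genes on chromosome 13 held 7 of them and Hfe. The linker histone gene H1f5 read 8.34, 8.64 and 8.89 without LPS and 5.80, 6.25 and 6.39 with it. Histone genes are near-identical in sequence, so their probe sets may share signal. Among 39 kinesins 20 fell and 4 rose (1 to 2 without either experiment 2 array or the experiment 1 LPS array). Among 40 nucleotide synthesis genes 18 fell and 5 rose: thymidine kinase, Tk1, was 3.65-fold lower, while Upp1, which salvages uridine, was 6.87-fold higher.

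**Figure D4:**
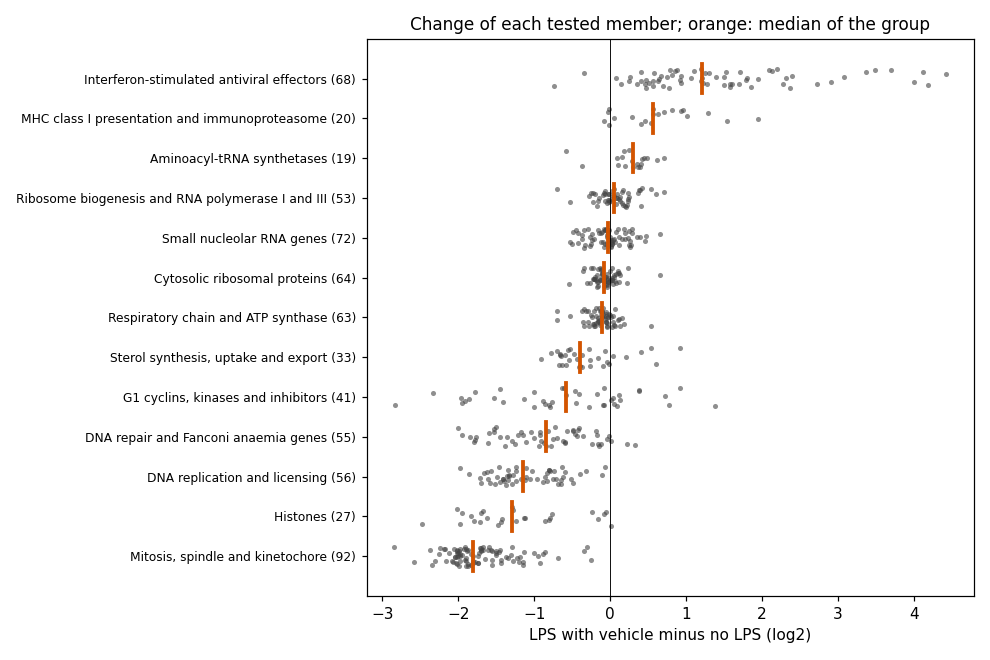
Log2 difference (x axis) of each tested member of 13 gene groups (y axis, number of members in brackets), with the group median in orange. Medians run from -1.81 for mitosis genes to 1.22 for antiviral effectors, and ribosomal protein, small nucleolar RNA and respiratory chain genes lie close to 0.

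The windows of division genes shared letters too. The cell cycle homology region (CHR) was searched as TTTGAA, the NF-Y box as CCAAT and E2F sites as TTTGGCGC or TTTCCCGC, on both strands. CHR was in 65.7% of the 70 windows of mitosis genes that fell and in 12.9% of all 9816, and the NF-Y box in 49 of the 70 and in 38.2% of all. Both stood together in 54.3% of the mitosis windows and in 5.23% of all. In the 39 windows of replication genes that fell, CHR was no more common, at 10.3%, but the NF-Y box was in 59.0%. The E2F forms were in 17.9% and 15.4% of these 39, against 0.856% and 1.96% of all. Of the mitosis windows, 7.14% and 5.71% held them. Another motif searched overlapped 4.10% of CHR, 0.670% of NF-Y and none to 4.06% of E2F matches. 3 windows with such matches in capitals are given 5′ to 3′: Aspm (chr1:139454523-139454822, plus strand), chosen after its values were seen, with CHR and NF-Y letters; the E2F repressor gene E2f7 (chr10:110745189-110745488, plus strand), which was 3.90-fold lower, with an E2F match; and Bcl2a1a (chr9:88956670-88956969, plus strand), a survival gene with the largest change among named genes whose window holds CHR. Bcl2a1a rose 14.3-fold, and CHR was also in 13 of the 40 windows of raised antiviral effectors (32.5%). Among the 320 windows of all genes raised at least 2-fold it was in 36 (11.3%), no more than over all windows. The paralogs of Bcl2a1a are near-identical, and its level may include theirs.
Aspm: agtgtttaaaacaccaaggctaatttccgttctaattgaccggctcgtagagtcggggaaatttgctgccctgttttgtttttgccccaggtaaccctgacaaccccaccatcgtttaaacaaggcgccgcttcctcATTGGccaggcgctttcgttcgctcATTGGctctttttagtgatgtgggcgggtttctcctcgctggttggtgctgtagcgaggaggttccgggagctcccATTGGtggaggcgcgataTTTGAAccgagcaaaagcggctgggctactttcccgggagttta
E2f7: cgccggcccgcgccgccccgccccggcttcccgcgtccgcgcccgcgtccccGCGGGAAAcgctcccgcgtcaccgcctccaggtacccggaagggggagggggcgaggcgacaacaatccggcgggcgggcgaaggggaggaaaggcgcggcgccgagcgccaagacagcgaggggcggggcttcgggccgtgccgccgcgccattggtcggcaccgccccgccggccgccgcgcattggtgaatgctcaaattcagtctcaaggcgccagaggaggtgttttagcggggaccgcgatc
Bcl2a1a: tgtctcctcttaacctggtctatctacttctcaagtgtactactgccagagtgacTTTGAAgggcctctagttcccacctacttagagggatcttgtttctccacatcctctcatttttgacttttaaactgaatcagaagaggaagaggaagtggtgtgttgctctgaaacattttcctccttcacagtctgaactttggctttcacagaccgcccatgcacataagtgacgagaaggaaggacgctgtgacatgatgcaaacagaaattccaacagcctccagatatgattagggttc

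**Figure D5:**
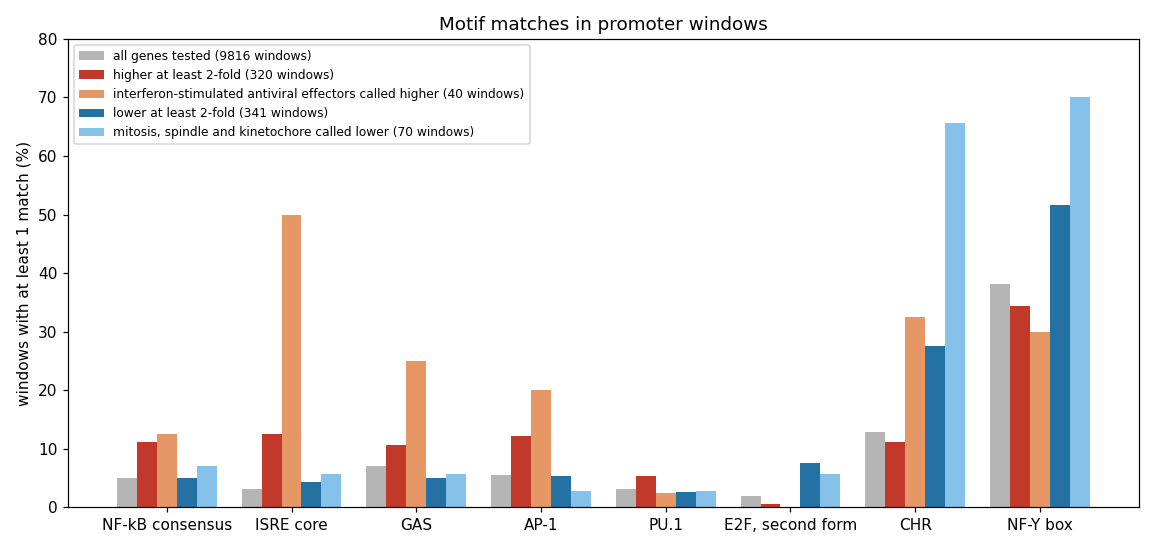
Percent of promoter windows with at least 1 match (y axis) for 8 motifs (x axis) in 5 gene sets, with the number of windows in brackets. The ISRE core stands out in raised antiviral effectors (20 of 40 windows, against 3.09% of all), and CHR (65.7% against 12.9%) and the NF-Y box (49 of 70, against 38.2%) in mitosis genes that fell.

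Chromatin genes fell in 29 and rose in 11 of 68 cases, and 6 to 7 rose without the experiment 1 or 3 array without LPS or without the experiment 1 or 2 LPS array. The maintenance methyltransferase gene Dnmt1 read 10.97, 11.06 and 10.94 without LPS and 9.69, 9.81 and 9.87 with it, and the heterochromatin gene Cbx5 was 2.89-fold lower. A pair of histone demethylase genes rose: Kdm6b, which removes H3K27 methylation, read 5.31, 5.08 and 5.18 without LPS and 7.11, 7.14 and 6.94 with it, and Kdm5b rose 4.10-fold. Of 312 genes named Zfp, 62 fell (19.9%, near the 16.3% over all genes) and 17 rose (5.45%, against 13.5%). Of 39 survival and death genes 11 rose (28.2%) and 6 fell (15.4%), against 13.5% and 16.3% over all genes. The necroptosis gene Mlkl was 2.72-fold and the death receptor gene Fas 3.83-fold higher, and Pidd1 2.18-fold lower.

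Several neighbouring genes were called the same way. The longest such run was of 10 tested genes on chromosome 19, mostly Ms4a genes, which encode membrane-spanning proteins of immune cells, with a median rise of 1.42. Ms4a6c read 4.34, 3.80 and 3.45 without LPS and 7.52, 7.86 and 8.19 with it, and Ms4a7 rose by 2.17. On chromosome 3 a run of 6 Sprr2 genes, which encode small proline-rich proteins of epithelial cornified envelopes, rose by 1.97 to 5.56. Sprr2d was dim without LPS, at 2.12, 1.44 and 2.38, and read 8.11, 7.40 and 7.11 with it, at least 20.7-fold higher. The Sprr2 genes are near-identical, and their probe sets may not be separate measurements. These runs were singled out after their values were seen.

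Genes that went from dim on every array of a group to above the 75th percentile on every array of the other numbered 10, and no gene did the reverse. They were Il1a, Il6, Serpinb2, Csf3, Sprr2d, Il1f9, Inhba, Stfa3, Fpr2 and Heatr9. The formyl peptide receptor gene Fpr2 read 1.29, 2.56 and 1.57 without LPS and 6.19, 6.34 and 6.17 with it, at least 8.38-fold higher. Stfa3, a stefin that inhibits cysteine proteases, varied most between LPS arrays, at 9.17, 7.28 and 6.11, and its measured rise of 4.78 had an SE of 0.818. With the 30th percentile as the limit for dim the count was 3.

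Ighm, the immunoglobulin mu heavy chain gene, was at a high level without LPS. It read 8.21, 9.34 and 8.71 without LPS, at percentile 91.6 on average, and 4.46, 6.18 and 6.30 with it. The groups did not overlap, and the fall of 3.11 (SE 0.551, adjusted p 0.000566, limma) had the largest SE among the 15 largest named falls. The 9 arrays with LPS and an HDHEA read 4.46 to 6.12. The B cell genes Cd79a, Ms4a1 and Pax5 were below the 40th percentile in both groups. Among genes in no list, the sialyltransferase gene St8sia4 fell 5.06-fold, from 9.68, 9.20 and 9.44 to 7.28, 7.19 and 6.83, and the pyrophosphate transporter gene Ank 4.58-fold, from 9.16, 9.07 and 9.22 to 6.97, 6.91 and 6.99. The ubiquitin ligase gene Rnf144b was 5.53-fold lower, and the kinase gene Wee1, which holds cells before mitosis, 4.71-fold lower.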

How the data were processed

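Total RNA was labelled with an Affymetrix whole-transcript sense assay, per the labels' protocols. The authors deposited log2 values per probe set, made with RMA per the submitters' processing notes, which corrects background, quantile-normalizes arrays and summarises probes, which hides a change common to most genes and compresses changes of dim genes. The sources used here do not name the RMA version or probe set definition. Of 41345 probe sets, 23521 had 1 gene symbol in the platform's table, 1814 several, and 16010 were not listed. The probe set with the highest mean over 15 arrays stood for a gene.

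Genes above their array's 40th percentile in at least 3 arrays entered limma 3.58.1 (R 4.3.3; lmFit and eBayes) with a model of 5 group means, with 10 residual degrees of freedom, two-sided, with Benjamini-Hochberg adjustment over all 15468 genes. SEs and adjusted p-values come from this fit. A gene named as higher or lower passed at an adjusted p under 0.05. The procedure was also run on simulated arrays drawn independently, with no shared experiment effect, so that run cannot show how pairing affects the calls. The number of arrays, 3 a group, limits precision.

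Members, gene lists, families and motifs were chosen with earlier results of these data known. Named genes were up to 15 a direction by size of change (predicted and RNA genes left out), up to 4 per list by p and up to 2 against its main direction, up to 10 a direction in no list, the switched genes and the identity markers, as far as space allowed; others are said to be chosen after their values were seen, as were the Gbp, Ms4a and Sprr2 members and Mir483. The promoters printed under the rule hold the largest change among list-named genes for each of 4 motifs. Genes without a single window in the promoter table were left out of motif shares. 1 of the gene lists is not reported here, and families are given only in part.

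Same-numbered arrays share an experiment identifier in the labels, so the numbers pair arrays. Deviations from group means correlated between 0.136 and 0.196 for the 3 pairs of these groups, and all 15 arrays matched their own number best. Alternatives were the block, fewer arrays, another variance prior, filters, scaling, averaged probe sets and each array left out.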

Additional observations from a re-analysis of the deposited data

Results flagged for a closer look

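A small share of the probe sets outside the gene table was called with LPS. Of the 16010 that the table does not list, 9889 passed the same filter and were fitted separately, with p-values adjusted among themselves. Of these, 291 (2.94%, against 29.8% of the 15468 genes tested) were called by limma at an adjusted p under 0.05. They were 140 higher and 151 lower. The probe sets were flagged because the comparisons above use only those with a gene symbol. At least 2-fold changes were seen in 58 upward and 69 downward, and 4 rose at least 8-fold. Probe set 17201371 rose most, from a dim 1.66 to 7.56, and probe set 17212211 fell most, from 7.13 to 4.78. They are unnamed here and were not traced to genes.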

How the results depend on the processing

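The counts of genes called, in all and by direction, with and without the 2-fold limit, stayed within 1.5 times their main value in all 15 alternatives. The number called ran from 3951 without the experiment 1 LPS array to 5313 with experiment as a block (2420 higher, 2893 lower), and leaving out each of the 6 arrays gave 3951 to 4203. With arrays centred on their medians, 2534 were higher and 2082 lower, a shift of 0.06 on the log2 scale, so the excess of falls over rises depends on scaling. For named genes, 4314 values kept direction and call, 59 lost and 13 gained the call, and none reversed. Of the counts of list members, 2141 stayed within 1.5 times and 199 did not. Genes switched on numbered 15 with the 60th percentile in place of the 75th, and 1 was then switched off. The motif shares of raised or lowered genes moved in 9 cases, among them CHR, in 247 of 1645 windows when all lowered genes were counted. Of named genes, experiment as a block over all 15 arrays changed the call of Aif1 (adjusted p 0.00383, limma), Lyz1 (0.0175) and Lyz2 (0.0461). All gained it, so that 5 identity markers rose and 7 fell. With only the 6 arrays and the block, Aif1 (0.0381) and Lyz1 (0.0342) gained the call. There Csf1r (0.0882), Laptm5 (0.0506), Cd4 (0.179), Ndufb3 (0.0646) and Pdgfra (0.0848) lost it. The causes were not tested. Only 24 h was measured, and dim genes give bounds.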

Other observations

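Some genes had a wide spread among the LPS arrays, and those given here ran in one order of the experiments or in its reverse. Csf3 read 10.05, 8.80 and 8.51, Stfa3 9.17, 7.28 and 6.11, Il23a 8.53, 7.78 and 7.33, and Inhba 8.11, 7.57 and 7.23. On the same arrays Kynu read 6.61, 6.78 and 7.66 and Ighm 4.46, 6.18 and 6.30, lowest on that of experiment 1, where the other 4 read highest. These genes were singled out after their values were seen, and the numbers of the 3 experiments are not a scale.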
